A study of Mus musculus with 30 samples.

Results

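In Emx1-Cre cells of the mouse cortex with and without the splicing factor NOVA2, 2682 splicing events in 1043 genes were listed as different. These are all rows of the authors' deposited splicing table for control against Nova2 conditional knockout (cKO) cells, out of 6491 rows in the 4 such tables of the series. They rest on 3 control samples, labelled wild-type Emx1-Cre, and 3 samples labelled Nova2-cKO Emx1-Cre. All 6 were sorted from cortex of C57BL/6J mice at embryonic day 18.5, and ribosomal RNA was removed before sequencing. Both groups carry Emx1-Cre, a Cre driver active in progenitors of the dorsal forebrain, whose descendants are excitatory neurons and also glia. The control and cKO cells marked by Gad2-Cre, a driver of inhibitory neurons, serve for comparison, with 3 samples each of the same strain, age and tissue. Of the 1043 genes, 598 (57.3%) had no row in the Gad2-Cre table, and these are described in most depth. The labels do not say whether samples came from separate animals, so the authors' p-values may in part measure technical spread.

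NOVA2 is an RNA-binding protein of neurons that binds clusters of the RNA tetramer YCAY, in which Y is a pyrimidine. As background, NOVA proteins bound upstream of or within an alternative exon tend to block its use, and those bound downstream tend to favour it. In cortex, NOVA2 is known for the splicing of synaptic, cytoskeletal and reelin pathway transcripts, among them Dab1.

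Each table gives 1 inclusion level per group, the authors' pooled fraction of an event's RNA that holds the alternative region, from 0 to 1. There is no level per sample, so no value below has a replicate error and no test across samples could be made. The authors' FDR is the only measure of confidence in a difference, and the sources used here do not say which spread it models. A row had to reach an FDR of at most 0.05 and a difference of at least 0.1, and the largest FDR listed was 0.0498. Coverage, the authors' value for the read support of an event, ran from 20 to 2222 with a median of 71. The depth of each library is unknown. Nova2 had 0 rows, and the tables hold no expression, so neither the deletion nor the labelled cell type could be checked against expression. Among 20 marker genes of excitatory cortical neurons 3 had a splicing row, among 20 of inhibitory neurons 2, and among 32 of glia, progenitors and vessels 1. Their part in the results was not tested. Positions are 1-based on mouse build mm10, and GENCODE M21, made on the same assembly, supplied the exon annotation.

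The exons below are coding exons from among the largest single-exon changes, at a coverage of at least 50, in genes not listed in the Gad2-Cre table, 4 that rose in cKO and then 5 that fell. They are shown because they carry large changes outside the Gad2-Cre list and are the sequence NOVA2 could meet within the exon itself. Capitals mark the YCAY tetramers CCAC or CCAT, and TCAC or TCAT, on the transcribed strand, the only strand searched, with overlaps counted. Those of Ablim1, Elmo2, Hs6st2 and Ccser2 lie on the minus strand of the genome and the others on the plus strand, and each is given as transcribed.
Ablim1: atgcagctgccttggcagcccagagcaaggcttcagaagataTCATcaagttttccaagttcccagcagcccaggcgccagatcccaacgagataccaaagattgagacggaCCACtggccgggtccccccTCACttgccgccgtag
Dab1: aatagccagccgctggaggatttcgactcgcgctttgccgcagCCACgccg
Elmo2: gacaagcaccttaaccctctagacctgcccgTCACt
Trrap: cctgCCATggaaggggtagag
Hs6st2: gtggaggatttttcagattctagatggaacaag
Mctp1: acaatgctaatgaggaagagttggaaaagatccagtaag
Itsn2: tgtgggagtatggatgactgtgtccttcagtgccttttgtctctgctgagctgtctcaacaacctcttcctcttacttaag
Fat1: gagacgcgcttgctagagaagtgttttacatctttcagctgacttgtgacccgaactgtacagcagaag
Ccser2: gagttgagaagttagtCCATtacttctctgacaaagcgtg
They are not all the exons that the rule picked, since 1 coding exon that rose and holds no YCAY is not shown. No relation between the motif and direction can be read from them. Over all listed coding exons of these genes, 68.7% of the 99 that rose and 66.2% of the 77 that fell held at least 1 YCAY. Among 107433 internal coding exons of GENCODE with lengths from 21 to 147 nt, the range of those printed, 75.5% held at least 1. The listed exons were not limited to that range, so these shares are not matched for length. A match is a description of these letters and not a binding site, and the flanking introns were not analysed here.

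The ratio of each FDR to its p-value in the authors' deposited table gives the number of events the authors tested, which was 33196 over 6 event types. The 2682 rows are therefore 8.08% of what was tested, 3.91% as higher in cKO and 4.17% as lower. Cassette exons, single exons that are used or skipped, made up 912 rows, 11.6% of 7855 tested. Tandem cassettes, runs of neighbouring exons used together, made up 710 rows (13.7% of 5168). Mutually exclusive exons made up 637 rows (4.29% of 14843), 1.37% for a gain of the isoform the table names first and 2.92% for a loss of it. The highest share was that of retained introns, 297 rows or 15.5% of 1922, and the lowest that of alternative 3' splice sites, 73 rows or 2.96% of 2465 (1.91% with a gain of the first-named isoform and 1.05% with a loss). Alternative 5' splice sites had 53 rows (5.62% of 943, as 2.97% and 2.65%). Retained introns were also the most one-sided: 13.0% of those tested were listed as higher in cKO and 2.45% as lower. For cassette exons these shares were 5.45% and 6.16%, and for tandem cassettes 6.62% and 7.12%. In 4945 events the p-value ranked no later than the last row listed for its type, and 54.2% of these were listed.

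In genes outside the Gad2-Cre list most listed exons rose, while in genes of both lists most fell. Of 416 cassette events in genes not listed in the Gad2-Cre table, 237 (57.0%) were higher in cKO, against 188 of 487 (38.6%) in genes listed in both tables. Tandem cassettes gave 218 of 378 (57.7%) against 121 of 329 (36.8%). Of all listed cassettes 46.9% were higher, and of all listed tandem cassettes 48.2%. Retained introns rose in both classes, 126 of 159 (79.2%) in the first and 124 of 138 (89.9%) in the second, against 84.2% of all listed introns. The first-named isoform rose in 79 of 280 mutually exclusive pairs (28.2%) and in 125 of 355 (35.2%), against 32.0% of all. At 3' splice sites it rose in 28 of 44 (63.6%) and 19 of 29 (65.5%), against 64.4%, and at 5' splice sites in 16 of 33 (48.5%) and 12 of 20 (60.0%), against 52.8%. No test of these shares was made, since events of a gene overlap and the classes depend on the authors' thresholds. With 1 event per gene, the largest, the cassette shares were 54.3% and 42.2%, and the tandem shares 53.9% and 37.6%. Overlapping rows of Anks1b gave 29 of the 218 rising tandem rows, and those of Kctd17 gave 21. When both tables were limited to differences of at least 0.2 the first cassette share fell below 50%, to 48.9%, while the second was 40.1%. With coverage of at least 50 in both tables they were 50.2% and 39.4%. Genes change class under these limits. With each gene kept in its first class, the shares were 56.5% of 193 and 37.5% of 341 events at that coverage. At differences of at least 0.2 they were then 50.5% and 40.0%.

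**Figure D1:**
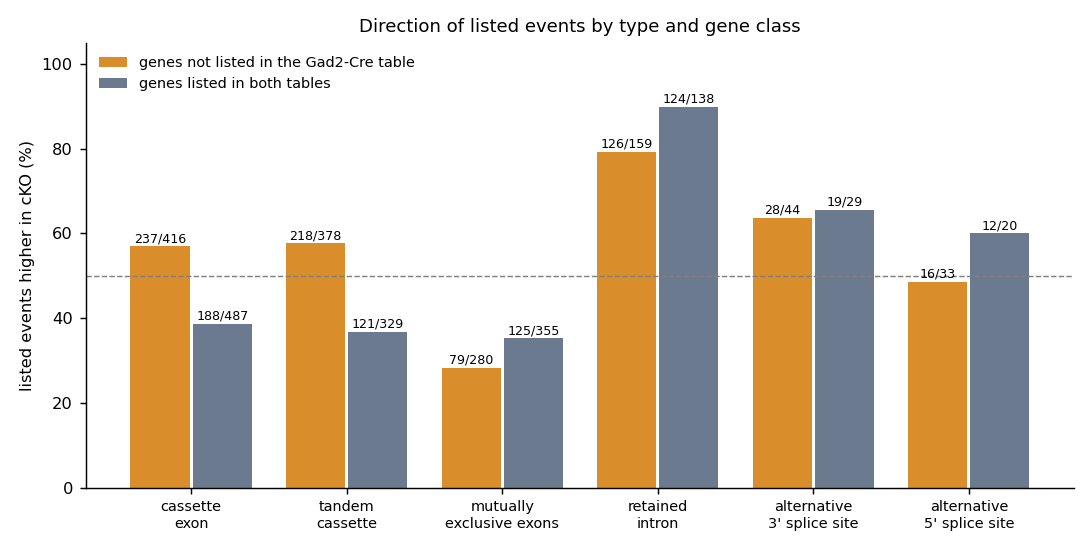
Bars give the percent of listed events that were higher in cKO (y axis) for each event type (x axis), with counts above each bar, for genes not listed in the Gad2-Cre table (orange) and genes listed in both tables (grey). The 2 classes lie on opposite sides of 50% for cassette exons and tandem cassettes, and above it for retained introns. For mutually exclusive exons and splice sites, higher means more of the first-named isoform.

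The events outside the Gad2-Cre list were smaller and less covered. Their median difference was 0.189, against 0.227 in genes listed in both tables, and their median coverage was 52.0, against 90.0. Differences of at least 0.5 were found for 36 of 1310 events in genes not listed in the Gad2-Cre table and for 174 of 1358 in genes listed in both. A single row was all that 377 of the 598 genes had (63.0%), against 193 of 445 (43.4%). The first class made up 63.8% of events with coverage from 20 to 30 and 29.7% of those with 200 or more. Absence from the Gad2-Cre table thus went with lower coverage in the Emx1-Cre table, whose part in these shares was not tested, and it is no test of a difference between the cell classes. By the same ratio of FDR to p-value, the Gad2-Cre comparison tested fewer events, 27897 against 33196, and listed 7.06% of them against 8.08%. The part of this in the 598 genes was not tested. In each of 5 coverage classes, the share of cassette and tandem events higher in cKO was larger outside the Gad2-Cre list. It was 67.0% against 36.7% at a coverage from 100 to 200, but 52.3% against 51.4% from 30 to 50. These shares count overlapping rows of a gene separately.

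**Figure D2:**
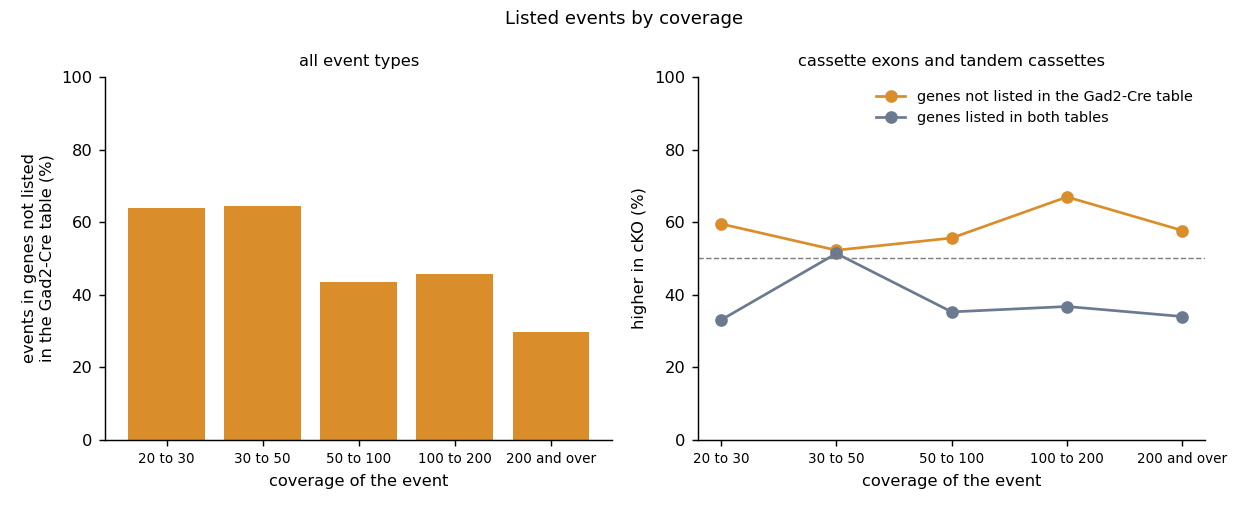
Left, the percent of listed events (y axis) in genes not listed in the Gad2-Cre table, by coverage of the event (x axis), which goes from 63.8% in the lowest class to 29.7% in the highest. Right, the percent of cassette and tandem events higher in cKO in each class of genes, with a dashed line at 50%; the orange points lie above the grey ones in all 5 coverage classes, by less than 1 percentage point from 30 to 50.

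Among single exons of genes outside the Gad2-Cre list with a coverage of at least 50, the largest gains were in Ablim1, Dab1 and Itpr1; less covered events, some of them larger, follow with the gene lists. In Ablim1 (ENSMUSG00000025085), an actin-binding LIM protein, the 147 nt exon at chr19:57046925-57047071 went from an authors' level of 0.0854 in control to 0.784 in cKO (FDR 1.06e-35, coverage 108). In Dab1, the adaptor that carries the reelin signal into migrating neurons, the 51 nt exon at chr4:104713622-104713672 rose from 0.0115 to 0.694 by the authors' levels (FDR 5.95e-46, coverage 88.0). In Itpr1, the endoplasmic calcium channel opened by inositol trisphosphate, a 38 nt region at chr6:108416177-108416214 rose from 0.00763 to 0.515 by the authors' levels (coverage 132). All 3 started below 0.1; the Itpr1 region matches no GENCODE exon, and the others are coding.

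Elmo2, a partner of the DOCK activators of the GTPase Rac, had its 36 nt exon at chr2:165303666-165303701 rise from 0.338 to 0.778 by the authors' levels (FDR 1.69e-09). The 21 nt exon of Trrap, a scaffold of histone acetyltransferase complexes, at chr5:144810332-144810352, rose from 0.278 to 0.580 (authors' FDR 0.00285). Both lengths are multiples of 3. Outside annotated coding exons, a region of E130307A14Rik rose from 0.274 to 0.566 and one of the pseudogene Pisd-ps1 from 0.267 to 0.557, both the authors' levels.

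At the same coverage, the largest losses of single exons were in Hs6st2, Pvrl3 and Mctp1. In Hs6st2, which sulfates heparan chains, the 33 nt exon at chrX:51471374-51471406 fell from 0.728 to 0.208 by the authors' levels (FDR 3.77e-15, coverage 146). This row is assigned to both Hs6st2 and Gm14581, and which of them its reads come from was not examined. Such shared rows number 287 of the 2682, among them those given below for Cdk8, Tanc2, Gabra3, Ap3b1, Raly and Kif5c. A 63 nt region of Pvrl3, which encodes the adhesion protein nectin-3, at chr16:46437259-46437321, fell from 0.698 to 0.231 by the authors' levels, with an FDR of 0.0320. The 69 nt coding exon of Fat1, a giant cadherin, at chr8:45012019-45012087, fell from 0.574 to 0.202 (authors' FDR 1.93e-05). All 3 lengths are multiples of 3.

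The 39 nt exon of Mctp1, a membrane protein with calcium-binding C2 domains, at chr13:76731771-76731809, fell from 0.503 to 0.0542 by the authors' levels (FDR 1.64e-06, coverage 53.0). The 81 nt exon of Itsn2, an endocytic scaffold that activates Cdc42, at chr12:4640913-4640993, fell from 0.681 to 0.297 (authors' FDR 0.00256). A 197 nt region of Stx16, a SNARE protein of the Golgi, fell from 0.880 to 0.512, and a 24 nt region of Dnm1l, the GTPase that divides mitochondria, from 0.873 to 0.519, both the authors' levels. Neither of these is a GENCODE exon. The 40 nt coding exon of Ccser2, at chr14:36885751-36885790, fell from 0.850 to 0.503 by the authors' levels. Exons that started between 0.850 and 0.880 thus ended near the middle of the scale, while that of Mctp1 was almost lost.

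**Figure D3:**
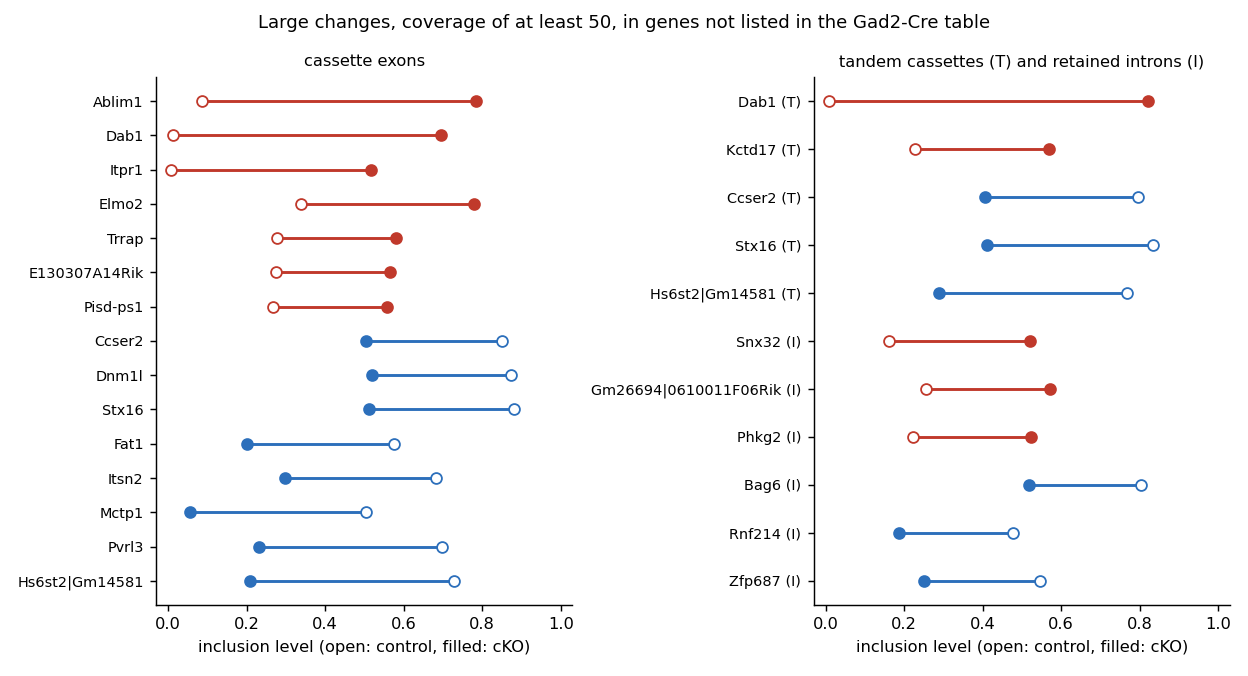
Lines join the authors' level in control (open circles) to that in cKO (filled circles) on the x axis for events with a coverage of at least 50 in genes named by size (y axis), red where higher and blue where lower in cKO. Ablim1, Dab1 and Itpr1 start below 0.1, and Dab1 has the longest line, from 0.00769 to 0.822 for its tandem exons.

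Over all 416 cassettes of these genes, 38 of the 237 gains started at a control level of at most 0.1, and 40 of the 179 losses started at 0.9 or more. The level passed from one side of 0.5 to the other in 30.5%, against 43.1% of cassettes in the genes of both lists. Exons of at most 27 nt, often called microexons, numbered 32 (7.69%), of which 17 rose and 15 fell; in the genes of both lists they numbered 47 (9.65%), 17 and 30. The exact boundaries matched a fully coding exon in 176 cassettes, a partly coding exon in 30, an exon of a UTR or non-coding transcript in 46 and no GENCODE exon in 164 (39.4%). For the genes of both lists the share that matched none was 37.4%. Among the coding exons, lengths divisible by 3 made up 64.6% of those that rose and 75.3% of those that fell, against 76.8% and 86.9% in genes listed in both tables.

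**Figure D4:**
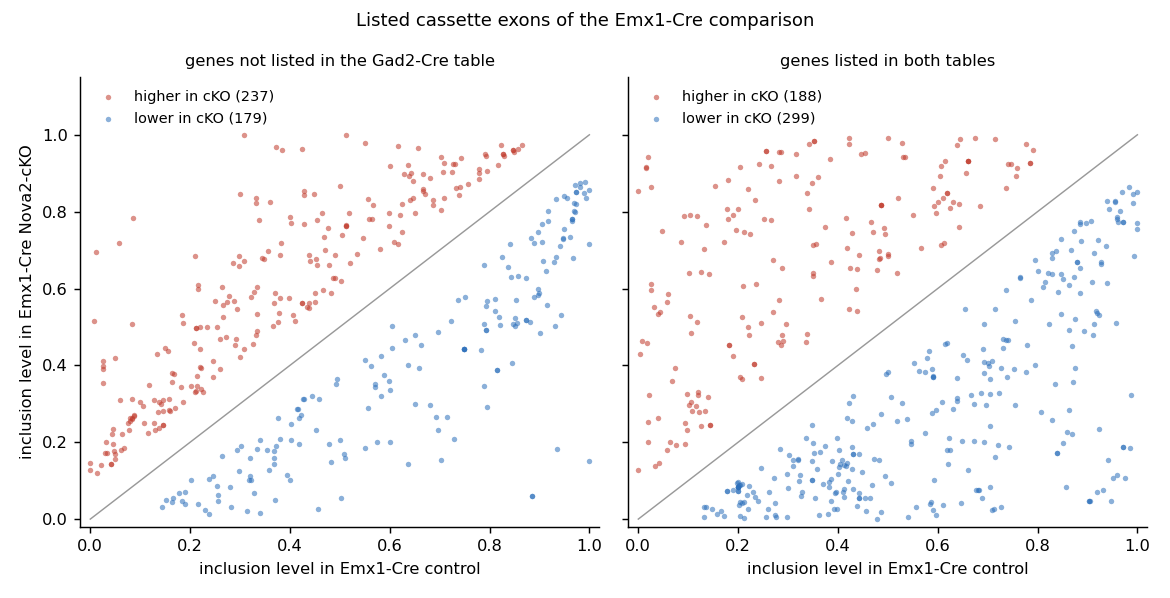
Each point is 1 listed cassette event, with its authors' level in control on the x axis and in cKO on the y axis, for genes not listed in the Gad2-Cre table (left, 237 red points higher and 179 blue points lower) and genes listed in both (right, 188 and 299). The band along the diagonal is empty because no difference below 0.1 is listed, and points far from the diagonal are sparser on the left.

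The mean YCAY density per exon was higher in rising than in falling coding exons in both classes of genes. The gap was smaller outside the Gad2-Cre list, where the density pooled over all nucleotides was nearly equal. Exons that rose in genes not listed in the Gad2-Cre table held 1.76 YCAY per 100 nt on average (SD over exons 1.61, 99 exons), and those that fell 1.46 (SD 1.5, 77 exons). In the genes of both lists the means were 2.30 (SD 2.52, 99 exons) and 1.61 (SD 1.97, 137 exons). There 74.7% of rising and 58.4% of falling exons held at least 1 motif, and 42.4% and 19.7% held 3 or more; outside the Gad2-Cre list 30.3% and 22.1% held 3 or more. All 162821 internal coding exons of the GENCODE basic set had a mean of 1.70 (SD 1.34), 81.9% held at least 1 and 38.2% held 3 or more. Pooled over all nucleotides of a set, the density outside the Gad2-Cre list was 1.68 per 100 nt in rising and 1.64 in falling exons. In the genes of both lists it was 2.30 and 1.94, and in all internal coding exons 1.78. Exons differ in length between these sets, and no test of these differences was made.

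Several large tandem changes were in genes whose single exons are named above, and such rows overlap. The pair of Dab1 exons spanning chr4:104713622-104713811, which starts with the exon printed above, rose from 0.00769 to 0.822 by the authors' levels (FDR 2.3e-61). Exons of Kctd17, an adaptor of cullin ubiquitin ligases, rose from 0.229 to 0.569, and those of Hs6st2, Stx16 and Ccser2 fell from 0.767 to 0.289, from 0.835 to 0.411 and from 0.795 to 0.405, all authors' levels.

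Among retained introns of genes outside the Gad2-Cre list, 126 rose and 33 fell. The rising ones had a median level of 0.177 in control and 0.333 in cKO, a median length of 196 nt and a median coverage of 93.0. The falling ones had medians of 0.477 and 0.2 for the levels, 171 nt and 53.0. With a coverage of at least 50, the largest gain was in Snx32, a sorting nexin, whose 248 nt intron at chr19:5495649-5495896 went from 0.162 to 0.520 by the authors' levels (FDR 3.6e-11, coverage 111). Introns also rose in 0610011F06Rik, from 0.255 to 0.571, and in Phkg2, a subunit of the kinase that switches on glycogen breakdown, from 0.222 to 0.524, both the authors' levels. The row of 0610011F06Rik is also assigned to Gm26694. At that coverage the largest falls were in the zinc finger gene Zfp687 (0.545 to 0.250), in Rnf214, which encodes a RING finger protein (0.477 to 0.187), and in the chaperone gene Bag6 (0.802 to 0.518), again the authors' levels. RNA that has not finished splicing counts as retained here, and its amount per sample was not measured.

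Mutually exclusive exons and splice sites have no included form, so a change here means one in the isoform named first. The events of this paragraph are among the largest in genes outside the Gad2-Cre list with a coverage of at least 50. In Ablim1 this isoform of a pair fell from 0.896 to 0.271 by the authors' levels, at a region that overlaps the cassette event above, so both may describe 1 change. It also fell in the kinase gene Tlk1 (0.567 to 0.225) and in Tm7sf3 (0.617 to 0.281), and rose in Tnrc18 (0.3 to 0.661), in Herpud2 (0.176 to 0.511) and in Cdk8, a kinase of the Mediator complex (0.113 to 0.430), all authors' levels. At 5' splice sites of these genes the largest change was in Itpr1, from 0.934 to 0.409 by the authors' levels (FDR 1.36e-11). It lies at chr6:108388185-108389554, apart from the cassette event of that gene. Isoforms of Gm15800 and Ubap2l fell from 0.722 to 0.480 and from 0.665 to 0.426, and those of the deacetylase Hdac10, the histone gene H3f3a and Fam92a rose by 0.158 to 0.179, by the authors' levels. At 3' splice sites the first-named isoform of Snrnp70, a protein of the U1 splicing particle, rose from 0.154 to 0.414 (authors' FDR 1.97e-13, coverage 301). Smaller 3' changes were those of Slc7a6os (0.108 to 0.319), the clathrin assembly gene Snap91 (0.729 to 0.866), the RNA-binding gene Qk (0.754 to 0.616) and the overlapping pair Arhgap4 and Naa10 (0.525 to 0.408), by the authors' levels.

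Grouped by function, 113 of the 598 genes (18.9%) fell in at least 1 of 18 gene lists. A gene was counted by the direction of its largest event. By that measure 51.1% of all 1043 listed genes were higher in cKO, with a median change of 0.104, and 52.3% of the 598, with a median of 0.106. No change smaller than 0.1 could be listed, so the median of a nearly even split takes the sign of the side with more genes. A list gene without a row may not have been tested, and no list was tested as a set. Events named from the lists were taken at any coverage. This coverage lay between 26.0 and 42.0 for those of Hnrnpd, Tango2, Abi2, Tenm3, Bin1, Ppfia3, Golgb1, Camk2b, Raly, Gabra2, Rap1gap, Hdac9 and Fmnl2. For a gene whose largest event is a mutually exclusive pair or a splice site, higher and lower again refer to the first-named isoform.

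Regulators of small GTPases, the switches that shape the cytoskeleton and vesicle traffic, had 26 of 82 genes listed, 11 higher and 15 lower, with a median change of -0.13. Outside the Gad2-Cre list were 15 of the 26, 8 higher and 7 lower, with a median of 0.13. The signs of these medians follow the side with more genes and do not give a typical change. Elmo2 had the largest gain among these and Itsn2 the largest loss. Of 80 genes of the actin and membrane skeleton, 18 were listed, 12 higher and 6 lower, and of the 6 outside the Gad2-Cre list 4 were higher. Besides Ablim1 these included Fmnl2, a formin that extends actin filaments, whose 235 nt region fell from 0.556 to 0.288, and Abi2, a part of the WAVE actin regulator, whose 147 nt exon rose from 0.743 to 0.939, by the authors' levels.

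Microtubule and motor genes were mostly lower: 24 of 87 were listed, 5 higher and 19 lower, with a median change of -0.18. Of the 9 outside the Gad2-Cre list, 2 were higher and 7 lower (median -0.16). The 45 nt coding exon of Nav2, which encodes a microtubule-binding protein of growing axons, fell from 1 to 0.152 by the authors' levels, with a coverage of 28.0. A region of Nin, which anchors microtubules at the centrosome, fell from 0.966 to 0.781, and an exon of Cep63, also of the centrosome, rose from 0.0454 to 0.234, by the authors' levels. Their coverages were 20.1 and 26.5, near the lowest the authors kept.

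Axon guidance and migration genes had 11 of 70 listed, and 6 of these were outside the Gad2-Cre list, 2 higher and 4 lower (median -0.15). Besides Dab1, the largest were Epha5, a receptor for ephrin guidance cues, and Unc5b, a netrin receptor. The 66 nt coding exon of Epha5 at chr5:84117561-84117626 fell from 0.399 to 0.102 by the authors' levels, at a coverage of 293. The Unc5b isoform fell from 0.952 to 0.574 at a coverage of 21.0, again the authors' value. Synaptic adhesion genes had 21 of 60 listed, and 5 of them (23.8%, against 57.3% of all listed genes) were outside the Gad2-Cre list, 2 higher and 3 lower. Most lists were below that 57.3%, among them those of glutamate synapse (23.5%), chromatin (33.3%) and microtubule genes (37.5%). Only GTPase regulators (57.7%), ubiquitin ligases and proteases (76.5%) and the markers of glia, progenitors and vessels, with 1 listed gene, were above it. In the teneurins Tenm3 and Tenm4, which bind partners across the synapse, exons fell from 0.882 to 0.492 and from 0.796 to 0.567 by the authors' levels. In Lrrtm4, a postsynaptic adhesion protein, an 83 nt exon rose from 0.287 to 0.568 by the authors' levels.

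Glutamate synapse genes had 17 of 65 listed, 10 higher and 7 lower, and 4 of them were outside the Gad2-Cre list, 2 in each direction. An isoform of Camk2b, the beta subunit of the synaptic kinase CaMKII, rose from 0.107 to 0.429, and one of the scaffold gene Tanc2 fell from 0.875 to 0.735, by the authors' levels. Slc1a2 encodes the glutamate transporter of astrocytes and is also the 1 listed gene among the 32 markers of glia, progenitors and vessels. Its 71 nt exon rose from 0.0594 to 0.309 by the authors' levels; the part of glial cells in this was not tested. Inhibitory synapse genes had 5 of 26 listed, with 4 gains and 1 loss. Outside the Gad2-Cre list were the GABA receptor subunits Gabra2, with an isoform going from 0.589 to 0.879, and Gabra3, from 0.489 to 0.712, by the authors' levels.

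Ion channels had 9 of 67 genes listed, 4 of them outside the Gad2-Cre list, 2 in each direction. The 129 nt coding exon of Cacna1e, an R-type calcium channel, at chr1:154404885-154405013, rose from 0.372 to 0.968 by the authors' levels, at a coverage of 29.9. Tandem exons of Kcnma1, the large-conductance potassium channel opened by calcium and voltage, rose from 0.106 to 0.431 at a coverage of 26.6, also the authors' values. Presynaptic release genes had 16 of 69 listed, 5 higher and 11 lower, with 3 higher and 4 lower outside the Gad2-Cre list. A 27 nt region of Rims2, an active zone scaffold, rose from 0.117 to 0.350 and tandem exons of Bin1, which bends membranes in endocytosis, fell from 0.98 to 0.668, by the authors' levels. In Ppfia3, a liprin of the active zone, an intron of 171 nt fell from 0.250 to 0.0878 (authors' levels). Genes of endosome, Golgi and lysosome traffic had 9 of 82 listed, 4 outside the Gad2-Cre list, 1 higher and 3 lower. Tandem exons of Golgb1, the Golgi tether giantin, fell from 0.838 to 0.417, an exon of Tango2 fell from 0.283 to 0.0308, and the isoform of the adaptor gene Ap3b1 rose from 0.405 to 0.579, all authors' levels.

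Among nuclear genes, RNA-binding and splicing factors had 37 of 126 listed, 21 higher and 16 lower, and 14 outside the Gad2-Cre list, 7 in each direction. Tandem exons fell in Hnrnpd, which encodes an RNA-binding protein of mRNA decay, from 0.893 to 0.545, and in the splicing factor gene Rbm5 from 0.758 to 0.423, and a region of Raly fell from 0.5 to 0.205, by the authors' levels. Chromatin and transcription genes had 30 of 119 listed, 10 higher and 20 lower. Outside the Gad2-Cre list they numbered 10, 1 higher and 9 lower, with a median change of -0.15. For Smarca2, Chd4, Kmt2e, Tet3, Meis2, Ezh2 and Hdac9 the direction is that of a first-named isoform. Such isoforms rose in only 28.2% of the mutually exclusive pairs outside the Gad2-Cre list, and the part of event type in the 9 lower genes was not tested. Arid1a, Kdm4c and Mbd1 have a direction of inclusion, and all fell. An intron of Arid1a, a subunit of the BAF chromatin remodeller, fell from 0.522 to 0.135 at a coverage of 35.0, by the authors' values. Isoforms of the deacetylase gene Hdac9 and of Smarca2, a BAF motor subunit, fell from 0.896 to 0.561 and from 0.661 to 0.483, by the authors' levels.

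Kinases and phosphatases had 28 of 129 genes listed, 10 higher and 18 lower, and 11 outside the Gad2-Cre list, 5 higher and 6 lower. Both tousled-like kinases, which act in chromatin assembly, were among the 3 largest of these. Besides Tlk1, the 96 nt coding exon of Tlk2 at chr11:105210545-105210640 fell from 0.811 to 0.573 by the authors' levels, and the other was Cdk8. Ubiquitin ligases and proteases had 17 of 79 genes listed, 6 higher and 11 lower. Of these 13 (76.5%) were outside the Gad2-Cre list, 5 higher and 8 lower, against 57.3% of all listed genes. Tandem exons of Trim9, a neuronal ligase of netrin-dependent axon branching, rose from 0.136 to 0.531 by the authors' levels and an intron of Dcaf8 from 0.574 to 0.876. Their coverages were 25 and 27.3. From the list of earlier NOVA targets, which is no independent evidence of a direction here, 26 of 38 genes had rows, 15 with a gain and 11 with a loss. Among them 3 were outside the Gad2-Cre list: Dab1, Kcnma1 and Rap1gap, whose 78 nt coding exon rose from 0.0471 to 0.176 by the authors' levels. Of the excitatory neuron markers 1 was outside it, the cortical transcription factor Lhx2, whose isoform fell from 0.506 to 0.389 (authors' levels).

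**Figure D5:**
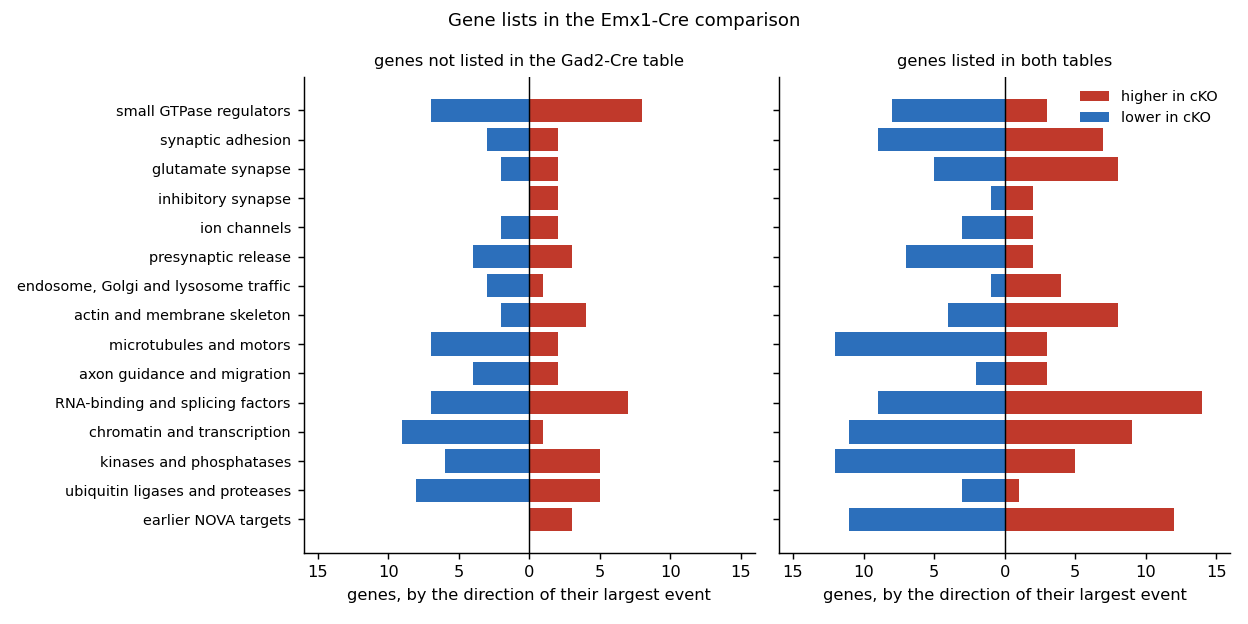
Bars count genes (x axis) of each list (y axis) by the direction of their largest event, red to the right for higher and blue to the left for lower in cKO, for genes not listed in the Gad2-Cre table (left panel) and genes listed in both (right panel). Chromatin genes (1 higher, 9 lower) and microtubule genes (2 higher, 7 lower) lean left in the first panel, and the 15 GTPase regulators are split 8 to 7. For most of these chromatin genes, lower means less of the first-named isoform of a mutually exclusive pair or splice site.

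Some genes outside the Gad2-Cre list were listed many times, because overlapping exon combinations are separate rows. Anks1b, which encodes a postsynaptic scaffold, had 35 rows, all higher in cKO, over 5 distinct cassette exons. The largest was a 150 nt region at chr10:90897277-90897426, from 0.403 to 0.771 by the authors' levels, and the highest coverage of the 35 was 30.6. Kctd17 had 26 rows, all higher, and Mpped1 21 rows, all lower, with a 157 nt coding exon falling from 0.795 to 0.292 by the authors' levels. Ccdc136 had 20 rows, 11 higher and 9 lower, and Npy1r, a receptor of neuropeptide Y, had 19, 4 higher and 15 lower. Regions of these 2 genes fell from 0.886 to 0.0612 and from 0.636 to 0.143 by the authors' levels, at coverages of 25 and 27. Counts of rows thus weigh these genes more than the 377 with 1 row.

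The best covered changes were small. Chosen after their values were seen, the 6 genes outside the Gad2-Cre list with the highest coverage were Tmeff1, Tecr, Tnc, Kif5c, Morf4l2 and G3bp1, with coverages from 1049 to 1707. The 45 nt coding exon of Tecr, an enzyme of fatty acid elongation, at chr8:83573411-83573455, rose from 0.260 to 0.389 by the authors' levels (FDR 2.91e-19). The first-named isoform of Kif5c, a neuronal kinesin, fell from 0.583 to 0.409 (authors' FDR 5.92e-15), and that of Tnc, an extracellular matrix protein, from 0.593 to 0.433. A 75 nt region of Morf4l2, a chromatin gene, rose from 0.424 to 0.563 by the authors' levels. All 6 differences lay far below those of Ablim1 and Dab1.

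Some of the exons named above were also listed in the authors' comparison of Emx1-Cre with Gad2-Cre controls, which uses the same Emx1-Cre control samples. The values are therefore only set side by side, as Emx1-Cre control, Emx1-Cre cKO and Gad2-Cre control in the authors' deposited tables. They were 0.338, 0.778 and 0.5 for the Elmo2 exon, and 0.278, 0.580 and 0.891 for the Trrap exon. For the Epha5 exon they were 0.399, 0.102 and 0.178, all authors' levels. For introns of Snx32 and Zfp687 they were 0.162, 0.520 and 0.347, and 0.545, 0.250 and 0.266 (authors' levels). The Trrap exon had a higher pooled level in Gad2-Cre controls than in Emx1-Cre cells of either genotype. So did the Kctd17 tandem exons (0.628) and the Pisd-ps1 region (0.586). Isoforms at the Qk 3' and Gm15800 5' splice sites had a lower one (0.132 and 0.442). For the Elmo2 and Epha5 exons and the Snx32 and Zfp687 introns it lay between the Emx1-Cre levels. Other such events are not given, and no test against the cKO cells was made.

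The largest difference of an event in genes listed in both tables was 0.925 (coverage 89.0), against 0.848 (Nav2, coverage 28.0) outside the Gad2-Cre list. For retained introns these were 0.474 (Agrn, coverage 145) and 0.627 (Adam11, coverage 28.0). With a coverage of at least 50, the largest intron change outside the Gad2-Cre list was 0.358, in Snx32. The 109 nt coding exon of the kinase gene Lmtk3, at chr7:45787646-45787754, rose by the authors' levels from 0.0189 to 0.942 in Emx1-Cre cells and from 0.00931 to 0.586 in Gad2-Cre cells. Its mutually exclusive isoform went down by the same reading from 0.970 to 0.0449, and from 0.988 to 0.322 in Gad2-Cre cells (authors' levels). A 5' splice site isoform of Smarcc2, a BAF subunit, rose from 0.168 to 0.910 and from 0.104 to 0.794, and a 3' splice site isoform of Tex2 from 0.208 to 0.954 and from 0.132 to 0.847. The tandem exons of Epb4.1, a linker of spectrin and actin, fell from 0.966 to 0.0617 in Emx1-Cre cells by the authors' levels, and that same event had no Gad2-Cre row although the gene did. Of the 1358 events in genes listed in both tables, 822 were themselves listed in the Gad2-Cre table and 536 were not. Of these 445 genes, 354 shared an event and 91 shared none. The 445 genes are 42.7% of the Emx1-Cre genes, and they match 441 of the 879 Gad2-Cre entries (50.2%), where an entry is a gene or a set of overlapping genes that share a row.

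Another table, from the Purkinje layer of the cerebellum at postnatal day 28, has other samples. The order of its groups is not named, so its levels were not used here and only the presence of genes and events was compared. It listed 113 of the 1043 Emx1-Cre genes (10.8%), which match 108 of its 252 entries (42.9%). Of the genes not listed in the Gad2-Cre table it held 32 of 598 (5.35%), and of those listed in both 81 of 445 (18.2%); the difference was not tested. Events present in it, picked after their values were seen, included the Epha5 and Mctp1 exons and the Itpr1 5' splice site, the last with an authors' FDR of 5.15e-39 at a coverage of 3920. Absence from the Gad2-Cre table thus did not mean absence from the Purkinje table.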

How the data were processed

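The deposited tables of 4 comparisons come from 18 of 30 samples, in 6 groups of 3, assigned by the labels' titles; the other 12 were not analysed here. Per the labels and file headers the authors quantified splicing with Quantas on mm10. The submitters' processing notes also name kallisto and edgeR, in roles not given in the sources used here, as are the aligner, versions and strandedness. Per the file headers each row holds 1 pooled inclusion level per group, deposited as a fraction from 0 to 1, and the authors' p-value and FDR, for rows with FDR of at most 0.05 and a difference of at least 0.1. The authors' coverage is a deposited signal, 1 value per row and not defined further. This filter makes counts and shares describe listed events only. Deposited genome intervals gave exon positions.

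Changes are cKO minus control. For retained introns the level is read as the share of the isoform named first, RET. Genes were matched by identifier. Not used were 2 columns of levels from Purkinje cells, whose groups are not named. The number of events tested was recovered as the smallest N for which N times p over FDR is a whole rank, within a relative 1e-05, for every row with p and FDR of at least 0.0001. On simulated data this recovered N in 12 of 12 draws without the running minimum of the usual adjustment and in 3 of 12 with it; the simulation first had that minimum, and the other form was added after it failed. The authors' FDR falls 288 times as p rises, so it was read as having no running minimum, and the numbers tested hold only under that reading. Exon sequences were cut from GENCODE M21 transcripts with Python 3.11.15 and pandas 2.3.3.

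Members and lists were chosen with earlier results of these data known. Named genes are, outside the Gad2-Cre list and with coverage of at least 50, the 8 largest cassette gains and losses and 3 each of other types, 1 event per gene and type; up to 3 per list at any coverage (some genes that these rules pick are not reported here, nor is 1 coding exon that rose and holds no YCAY); the 5 genes with most rows; and, among genes listed in both tables, the largest event of 5 types, which fell in 4 genes. Alternatives were stricter difference, FDR and coverage, 1 event per gene, and other matching; comparisons of the classes by event type and coverage were added after seeing the data. No test of events, lists or classes was made.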

Additional observations from a re-analysis of the deposited data

How the results depend on the processing

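No paired analysis was possible because the tables hold 1 pooled level per group, with no values per sample; for the same reason leaving out a replicate was not run. The planned motif counts in intron around exons were not run, since no genome sequence was used here. Of 63 alternatives, 46 stayed within the counting interval, the spread between exons or 1.5 times the count, 16 moved and 1 crossed 50%. These limits are wide for motif means and for counts, and the counting interval treats overlapping events as independent. The 46 is therefore no measure of stability. Stricter settings were applied to both tables, so genes change class with them. The 2682 rows became 1403 with differences of at least 0.2, 1277 with FDR of at most 0.001, 1673 with coverage of at least 50 and 1043 with 1 event per gene, which follows from fewer rows. The 598 genes not listed in the Gad2-Cre table became 322 with the larger difference and 274 with the stricter FDR, and 566 when also absent from the Purkinje table. Genes with at least 1 event absent from the Gad2-Cre table numbered 804. In the genes not listed in the Gad2-Cre table the share of cassettes higher in cKO turned from 57.0% to 48.9% with the larger difference. With the coverage minimum it was 50.2%, the share over all types 50.4% and that of tandem cassettes 62.8%. The stricter FDR moved their retained introns to 90.0%, and those of all genes to 91.2%. In genes listed in both tables, tandem cassettes were higher in 29.4% with the stricter FDR and 30% with the coverage minimum, and over all types in 49.4% with 1 event per gene. Tandem cassettes of all genes were higher in 44.3% with the stricter FDR and 44.0% with the coverage minimum. With each gene kept in its first class, the cassette share outside the Gad2-Cre list was 50.5% with the larger difference and 56.5% with the coverage minimum. The cause of the other shifts was not tested. Depth per library is unknown, and rows with coverage near 20 have the least certain levels.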
